A study of Mus musculus with 12 samples.

Results

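Bone morphogenetic proteins (BMPs) are secreted dimers of the TGF-beta superfamily, and 10 genes of their extracellular regulation are described here: the ligand genes Bmp2, Bmp3, Bmp4, Bmp5, Bmp6 and Bmp7 and the genes of the secreted ligand-binding proteins Nog, Chrd, Grem1 and Bmper. The genes were taken by symbol from the count files, and all 10 were found among 24391 symbols and passed the filter on low counts, which left 15958 genes. The tissue was the palatal shelf, which later forms the secondary palate, dissected from C57BL/6 embryos at stage E13.5, and its RNA was sequenced. The 4 groups had 3 libraries each. TAM_AP was the anterior part of the shelves from tamoxifen-treated mice and con_AP the anterior part from controls. TAM_PP was the posterior part from tamoxifen-treated mice and con_PP the posterior part from controls. Tamoxifen, a drug that binds oestrogen receptors, was the agent tested, and the series title names cleft palate as its outcome in mice. The labels give no dose, treatment time, embryo sex, litter or pooling, so each p reflects only how far these libraries scatter, which may be technical.

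BMP dimers bind type I and type II serine/threonine kinase receptors, whose signal runs through Smad1, Smad5 and Smad9 together with Smad4. Noggin, chordin and gremlin bind the ligands outside the cell and keep them from the receptors, while Bmper can lower or raise signalling depending on context. In the developing palate, BMP signalling is known for its part in mesenchymal growth, in patterning between the anterior and posterior shelf, and in the bone that later forms there. Loss of noggin is known to give cleft palate in mice.

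Total counts ran from 39384932 to 73017438 per library, and the 10 genes had between 50 (Grem1 in a con_AP library) and 7571 counts (Bmp7 in a TAM_AP library). Levels are given as CPM, counts relative to a library total scaled by the trimmed mean of M values (TMM). Shox2, which marks the anterior palate, stood at 376 to 579 CPM in TAM_AP and 304 to 360 CPM in con_AP, against 12.7 to 22.9 CPM in TAM_PP and 16.5 to 19.8 CPM in con_PP. Meox2, a posterior gene, stood at 8.12 to 9.77 CPM in TAM_AP and 5.34 to 9.51 CPM in con_AP, against 125 to 142 CPM in TAM_PP and 121 to 139 CPM in con_PP. Markers of mesenchyme and of epithelium were present in every group. In bulk tissue, fewer cells of a type and less RNA per cell cannot be told apart.

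The anterior shelf differed from the posterior shelf in most of these genes, with and without tamoxifen. Bmp6 was the 1 member higher anteriorly, while Grem1, Bmp3, Bmper, Bmp5 and Chrd were higher posteriorly in both settings and Bmp7 in controls. Under tamoxifen (TAM_AP against TAM_PP) 1 member was higher and 5 were lower, where all genes tested gave calls for 7.60% and 10.2% in these directions. In controls (con_AP against con_PP) 1 was higher and 6 were lower, against 10.2% and 13.1% of all genes. A call means p under 0.05 in edgeR's quasi-likelihood test after Benjamini-Hochberg adjustment across the 15958 genes, with all 12 libraries in the fit. The comparisons under tamoxifen and in controls share no library.

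The promoter sequences of Bmp6 and Grem1 are shown because these genes had the largest regional differences, in opposite directions. RefSeq (GRCm38.p6) gave a promoter for 6 of the 10 members, matched by symbol, and the 250 bases upstream of the annotated start are printed 5′ to 3′ on the gene's strand. That of Bmp6 is chr13:38345466-38345715 on the plus strand, and that of Grem1 is chr2:113758649-113758898 on the minus strand. Capitals mark GGCGCC, a palindrome that BMP-activated Smads bind, and TAAT, the core of homeodomain sites, on either strand.
Bmp6: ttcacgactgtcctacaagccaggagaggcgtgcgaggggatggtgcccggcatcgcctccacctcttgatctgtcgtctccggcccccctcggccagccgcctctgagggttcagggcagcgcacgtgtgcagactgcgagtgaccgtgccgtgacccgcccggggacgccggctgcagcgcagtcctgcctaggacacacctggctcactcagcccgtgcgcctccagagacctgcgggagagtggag
Grem1: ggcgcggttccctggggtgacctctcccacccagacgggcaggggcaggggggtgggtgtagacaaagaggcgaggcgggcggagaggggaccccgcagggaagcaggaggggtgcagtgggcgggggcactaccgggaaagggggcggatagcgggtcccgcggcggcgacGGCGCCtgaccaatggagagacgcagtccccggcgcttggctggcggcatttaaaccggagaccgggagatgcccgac
The Grem1 window held 1 GGCGCC and no TAAT, and the Bmp6 window held neither. GGCGCC was present in 9.6% and TAAT in 54.9% of 32851 RefSeq promoter windows of the same length. Both windows were rich in CpG, with 22 in Bmp6 and 24 in Grem1 against a median of 6 over all windows. Among the other 4 members with a window, GGCGCC was found in that of Chrd, and TAAT in those of Bmp4 and Bmp5.

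Bmp6 encodes a ligand of the Bmp5/6/7 subgroup that in other tissues is known for hepcidin control and cartilage. Its level was 57.9, 43.0 and 78.1 CPM in TAM_AP and 19.9, 25.0 and 21.6 CPM in TAM_PP. In controls it was 55.5, 72.7 and 76.1 CPM in con_AP and 20.4, 15.3 and 18.1 CPM in con_PP. Every anterior library exceeded every posterior one. The anterior excess was 2.69-fold under tamoxifen (log2 fold change 1.43, SE 0.20, adjusted p = 0.00018) and 3.79-fold in controls (1.92, SE 0.20, adjusted p = 1.6e-05). The group order was con_AP, TAM_AP, TAM_PP and con_PP, and neighbours from the same part of the palate overlapped. Exons of Txndc5 overlap those of Bmp6 by 224 bases on the other strand, and the strand setting of the counts is not given in the sources used here. Txndc5 was not called between the parts (adjusted p = 0.20 under tamoxifen and 0.17 in controls, edgeR's quasi-likelihood test).

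Markers of epithelium moved with Bmp6: 6 of 7 were higher anteriorly in both settings, against 7.60% of all genes under tamoxifen and 10.2% in controls. Their summed level was 780 to 961 CPM in TAM_AP against 463 to 612 CPM in TAM_PP, and 802 to 1026 CPM in con_AP against 423 to 467 CPM in con_PP. No epithelial marker was at 0, and the part of these cells in the Bmp6 difference was not tested. Of 4 tooth germ genes, 3 were likewise higher anteriorly in both settings, and their part was not tested either. The other 1, Barx1, was lower, and it is also a posterior gene of the palate. Over all genes, 10.2% under tamoxifen and 13.1% in controls were called lower.

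Grem1 encodes gremlin, an antagonist that binds Bmp2, Bmp4 and Bmp7. Per transcript length it had the lowest mean of the 10 members in every group, between 1.096 TPM in con_AP and 7.30 TPM in TAM_PP. In CPM it stood at 2.21, 2.04 and 3.15 CPM in TAM_AP and 9.16, 11.6 and 10.8 CPM in TAM_PP. In controls it stood at 1.73, 2.25 and 1.17 CPM in con_AP and 7.34, 7.50 and 6.65 CPM in con_PP. The anterior and posterior ranges lay far apart in both settings. Grem1 was 4.28-fold lower anteriorly under tamoxifen (log2 fold change -2.10, SE 0.20, adjusted p = 9.4e-07) and 4.17-fold lower in controls (-2.06, SE 0.21, adjusted p = 2.2e-06). The group order was TAM_PP, con_PP, TAM_AP and con_AP, with overlap between the anterior groups alone.

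Bmp3 is an unusual member of the ligand family that is known to lower BMP signalling through type II receptors. Its level was 22.9, 20.2 and 25.1 CPM in TAM_AP and 51.2, 55.7 and 67.1 CPM in TAM_PP. In controls it was 15.2, 20.2 and 16.7 CPM in con_AP and 30.1, 40.6 and 38.3 CPM in con_PP. The anterior and posterior ranges did not overlap in either setting. Bmp3 was 2.55-fold lower anteriorly under tamoxifen (log2 fold change -1.35, SE 0.13, adjusted p = 1.3e-06) and 2.09-fold lower in controls (-1.07, SE 0.14, adjusted p = 2.1e-05).

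Bmper encodes a secreted protein with chordin-like repeats. It stood at 25.3, 21.7 and 29.2 CPM in TAM_AP and 44.6, 47.1 and 41.7 CPM in TAM_PP, and at 24.6, 23.5 and 27.1 CPM in con_AP and 41.2, 43.6 and 40.7 CPM in con_PP. It was 1.75-fold lower anteriorly under tamoxifen (log2 fold change -0.81, SE 0.10, adjusted p = 1.3e-05) and 1.67-fold lower in controls (-0.74, SE 0.10, adjusted p = 3.6e-05). The levels fell into 2 bands by part of the palate, and within a part the treated and control ranges overlapped.

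Bmp5, a ligand known in mice from the short ear mutant and its skeletal changes, was also higher posteriorly. Its level was 6.18, 5.91 and 7.19 CPM in TAM_AP and 10.7, 10.7 and 8.61 CPM in TAM_PP, and 4.63, 4.59 and 3.63 CPM in con_AP and 8.46, 6.92 and 6.59 CPM in con_PP. It was lower anteriorly with a log2 fold change of -0.64 under tamoxifen (SE 0.15, adjusted p = 0.0052) and -0.77 in controls (SE 0.15, adjusted p = 0.0014). Exons of the antisense gene Gm26903, which is not among the symbols counted, overlap those of Bmp5 by 1878 bases. As the strand setting is not given, it is not known whether the Bmp5 counts hold reads from the opposite strand.

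Chrd encodes chordin, which binds Bmp2, Bmp4 and Bmp7 until it is cleaved by tolloid proteases. It stood at 12.04, 11.9 and 13.8 CPM in TAM_AP and 19.7, 28.1 and 24.2 CPM in TAM_PP, and at 19.0, 18.2 and 18.3 CPM in con_AP and 26.4, 23.0 and 26.8 CPM in con_PP. The order TAM_AP, con_AP and then the posterior groups ran from low to high, with overlap between TAM_PP and con_PP alone. Chrd was 1.91-fold lower anteriorly under tamoxifen (log2 fold change -0.93, SE 0.12, adjusted p = 1.8e-05) and 1.38-fold lower in controls (-0.46, SE 0.12, adjusted p = 0.0088). The difference between these regional differences is the interaction term given further on.

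Bmp7 encodes a ligand that mice need for kidney and eye development. It stood at 102, 83.2 and 83.4 CPM in TAM_AP and 103, 103 and 112 CPM in TAM_PP, and at 76.2, 75.1 and 70.8 CPM in con_AP and 84.9, 97.8 and 99.8 CPM in con_PP. Its anterior level was lower in controls (log2 fold change -0.35, SE 0.09, adjusted p = 0.0086) and was not called under tamoxifen (-0.24, SE 0.09, adjusted p = 0.068). Without TAM_AP replicate 1, the highest anterior library, Bmp7 was called under tamoxifen too (-0.36, adjusted p = 0.010).

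Bmp2, Bmp4 and Nog gave no regional call. Bmp2 and Bmp4 encode closely related ligands and Nog encodes noggin, their high-affinity antagonist. Bmp4 stood at 37.2, 31.6 and 38.7 CPM in TAM_AP and 36.6, 40.5 and 41.1 CPM in TAM_PP (log2 fold change -0.14, SE 0.10, adjusted p = 0.40). It stood at 43.5, 44.2 and 53.7 CPM in con_AP and 47.8, 41.5 and 42.0 CPM in con_PP (0.11, SE 0.10, adjusted p = 0.48), and the ranges overlapped in both settings. Nog stood at 12.7, 10.5 and 13.6 CPM in TAM_AP and 12.8, 15.5 and 17.6 CPM in TAM_PP (-0.32, SE 0.15, adjusted p = 0.17). It stood at 12.7, 17.97 and 16.8 CPM in con_AP and 15.1, 11.96 and 13.1 CPM in con_PP (0.24, SE 0.15, adjusted p = 0.27). The Nog ranges overlapped in both settings, and neither difference passed the threshold.

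Bmp2 stood at 41.2, 24.2 and 56.9 CPM in TAM_AP and 44.2, 56.2 and 59.3 CPM in TAM_PP (log2 fold change -0.38, SE 0.24, adjusted p = 0.33). In controls it stood at 38.1, 38.7 and 33.9 CPM in con_AP and 50.1, 45.2 and 46.5 CPM in con_PP (-0.36, SE 0.24, adjusted p = 0.32). The control ranges did not overlap, and the shared estimate of the spread included the wide TAM_AP values. With the 6 control libraries fitted alone the control difference was called (adjusted p = 0.0063), as it was without TAM_AP replicate 2 (-0.38, adjusted p = 0.028), and without TAM_AP replicate 3 so was that under tamoxifen (-0.70, adjusted p = 0.018).

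**Figure D1:**
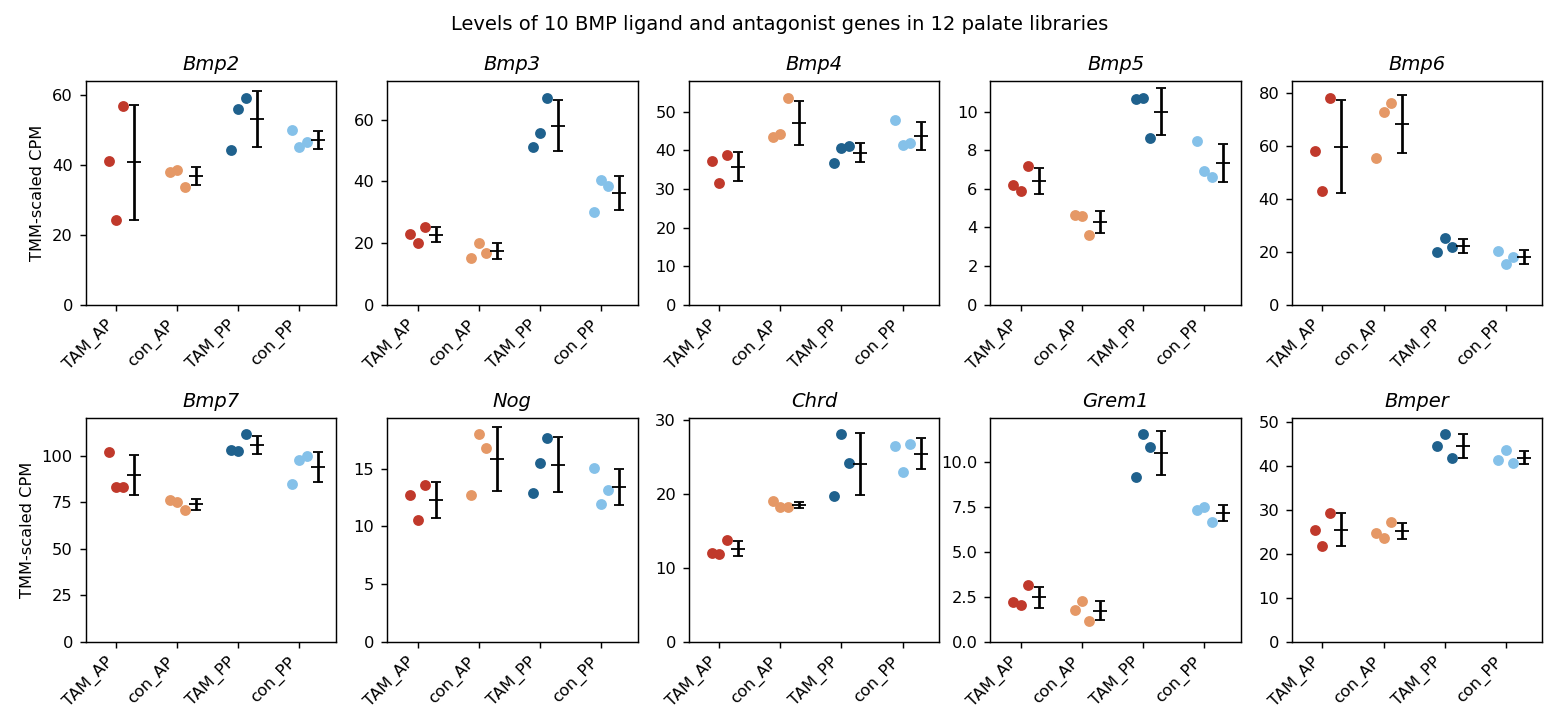
CPM of the 10 members in each library (points) with the group mean and SD beside them (bars, n = 3), in the order TAM_AP, con_AP, TAM_PP, con_PP. Bmp6 is high in the anterior groups (43.0 to 78.1 CPM), Grem1, Bmp3 and Bmper are high in the posterior groups, and Bmp2 spreads from 24.2 to 56.9 CPM in TAM_AP.

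Cartilage and muscle markers moved with the posterior excess of Grem1, Bmp3, Bmper, Bmp5 and Chrd. All 6 cartilage and all 6 muscle markers were lower anteriorly in both settings, against 10.2% of all genes under tamoxifen and 13.1% in controls. Cartilage markers summed to 407 to 505 CPM in TAM_AP against 1460 to 2097 CPM in TAM_PP, and to 498 to 560 CPM in con_AP against 2065 to 2269 CPM in con_PP. Muscle markers summed to 5.01 to 12.7 CPM in TAM_AP against 551 to 788 CPM in TAM_PP, and to 6.42 to 18.6 CPM in con_AP against 451 to 495 CPM in con_PP. No gene of either list was at 0 in any group, and their part in the differences of these members was not tested.

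**Figure D2:**
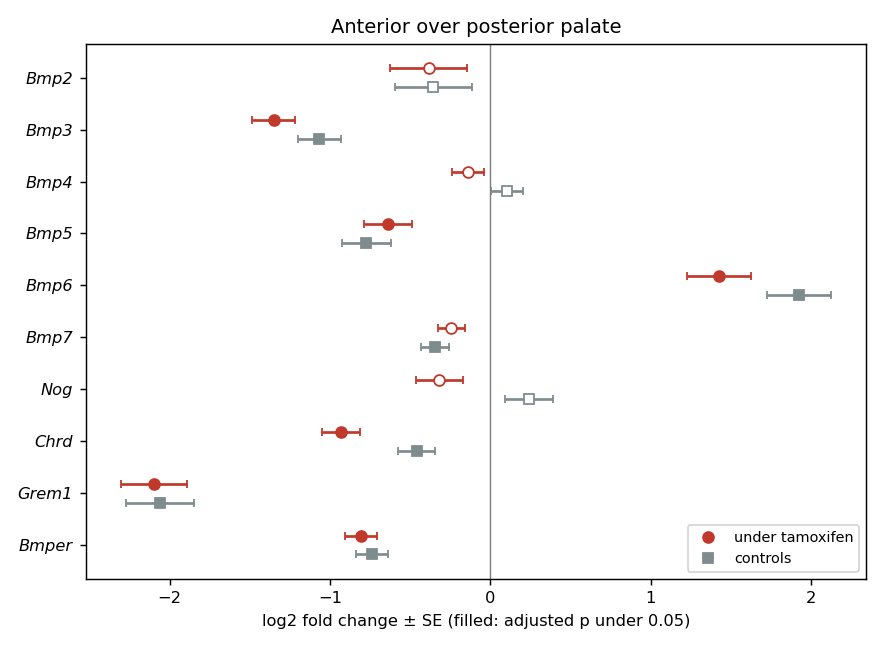
Log2 fold change of the anterior over the posterior palate with its SE for the 10 members, under tamoxifen (circles) and in controls (squares), with filled symbols for calls. Bmp6 lies at 1.43 and 1.92, and Grem1 at -2.10 and -2.06.

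Seen per transcript length, the regional difference changed the make-up of the ligand transcripts. For this, counts were divided by the length of the longest GENCODE transcript per symbol and scaled to a fixed total (TPM, a level per transcript length), which depends on that choice of transcript. The 6 ligand genes summed to 220 ± 36.5 TPM in TAM_AP, 199 ± 8.88 TPM in con_AP, 232 ± 12.6 TPM in TAM_PP and 195 ± 0.991 TPM in con_PP (SD, n = 3 each). Bmp7 and Bmp4 together with Bmp6 made up most of the anterior sum. Bmp6 held 21.9 ± 3.28% of the ligand sum in TAM_AP against 7.68 ± 0.766% in TAM_PP, and 24.8 ± 2.79% in con_AP against 6.87 ± 0.934% in con_PP. Bmp3 held 4.62 ± 0.307% in TAM_AP against 10.9 ± 0.869% in TAM_PP, and 3.44 ± 0.439% in con_AP against 7.58 ± 1.20% in con_PP. The share of Bmp4 was 23.3 ± 1.48% in TAM_AP and 30.0 ± 2.55% in con_AP, and 23.7 ± 0.385% in TAM_PP and 29.2 ± 2.25% in con_PP, without overlap between treated and control libraries in either part. These shares still hold the trend with transcript length and GC content under tamoxifen that is given further on. With that trend removed, the treated and control CPM ranges of Bmp4 overlapped in both parts. The shares of 1 library add up to the whole, so they do not move independently.

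**Figure D3:**
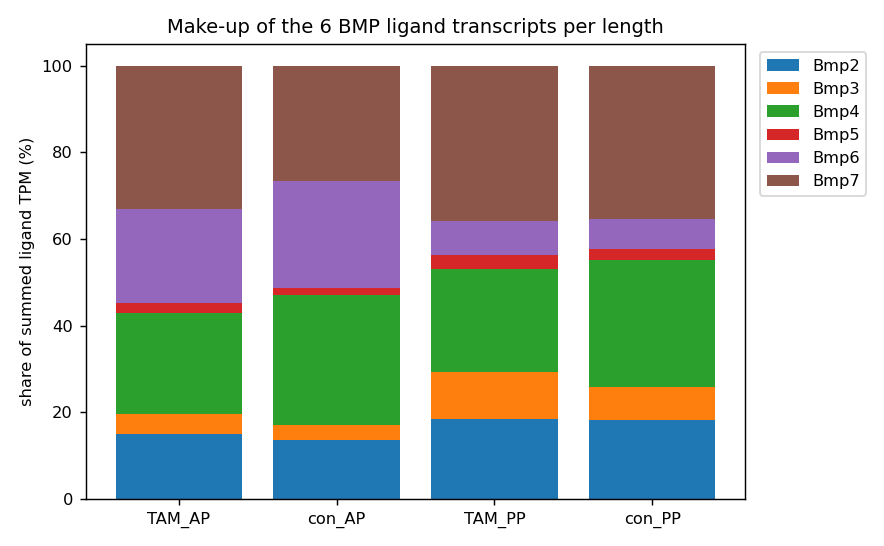
Mean share of each ligand gene in the summed TPM of the 6 ligands, by group. Bmp6 takes 21.9% and 24.8% in the anterior groups (TAM_AP, con_AP) and 7.68% and 6.87% in the posterior groups (TAM_PP, con_PP).

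The 4 antagonist genes summed to 51.0 ± 6.73 TPM in TAM_AP against 82.7 ± 5.31 TPM in TAM_PP, and to 53.8 ± 3.99 TPM in con_AP against 71.0 ± 2.08 TPM in con_PP. All anterior sums lay below all posterior sums. Nog held the largest share anteriorly, at 41.7 ± 1.20% in TAM_AP and 45.2 ± 4.75% in con_AP. Bmper held the largest share posteriorly, at 41.0 ± 3.99% in TAM_PP and 41.8 ± 2.80% in con_PP. Grem1 held 3.39 ± 0.428% in TAM_AP and 2.02 ± 0.632% in con_AP, against 8.81 ± 0.296% in TAM_PP and 6.54 ± 0.480% in con_PP.

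Genes with the most similar profile were sought for members with a regional log2 fold change of at least 1 in size, by the Euclidean distance between centred log2 CPM over the 12 libraries. For Bmp6 these were Lef1 (distance 0.72) and Foxf1 (0.75), where the Bmp6 profile itself had a length of 3.01. Lef1, which is also in the list of tooth germ genes, averaged 43.5 CPM in TAM_AP, 62.1 in con_AP, 19.9 in TAM_PP and 18.1 in con_PP. For Grem1 they were Nxph4 (0.64) and Lox (0.65) with a Grem1 profile length of 3.83, and Lox, which encodes the collagen cross-linker lysyl oxidase, averaged 109 CPM in TAM_AP, 62.2 in con_AP, 461 in TAM_PP and 253 in con_PP. For Bmp3 they were Ust (0.56) and Cdh13 (0.62), with a Bmp3 profile length of 2.37.

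The changes called under tamoxifen, up to 1.60-fold, were smaller than the regional differences of Bmp6, Grem1 and Bmp3. In the anterior shelf (TAM_AP against con_AP) Bmp5, Bmp3 and Bmp7 rose and Chrd and Bmp4 fell, with Bmp7 (1.21-fold) the smallest change and Bmp5 (1.499-fold) the largest of the 5. These were 3 higher and 2 lower members of 10, where calls over all genes were 25.6% higher and 24.0% lower, so the members' share was close to that of all genes. In the posterior shelf (TAM_PP against con_PP) Bmp3, Grem1 and Bmp5 rose, by 1.37-fold to 1.60-fold, and 0 members fell, where 17.3% and 11.7% of all genes were called.

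The fold changes under tamoxifen went along with transcript length and GC content across all genes. In the anterior shelf the median log2 fold change of TAM_AP over con_AP was -0.33 in the 25% of genes with the shortest transcripts and 0.43 in the 25% with the longest, and in the posterior shelf (TAM_PP over con_PP) it was -0.20 and 0.28. With this trend removed from each library, 1 member was higher and 1 lower in the anterior shelf (17.2% and 15.7% of all genes), and 2 were higher and 0 lower in the posterior shelf (9.41% and 8.30% of all genes). The 7 regional calls in controls and the 6 under tamoxifen were all kept. Values without the trend are therefore given beside the treatment results of the members where they change a call or a direction.

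Chordin transcripts fell in the anterior shelf. Chrd stood at 11.9 to 13.8 CPM in the 3 TAM_AP libraries, all below the 18.2 to 19.0 CPM of con_AP (1.47-fold lower, log2 fold change -0.56, SE 0.12, adjusted p = 0.0010). Removal of the trend left it at -0.53 (adjusted p = 0.00055), and leaving out any single library left it called. In the posterior shelf TAM_PP and con_PP overlapped (-0.08, SE 0.12, adjusted p = 0.61). Exons of Thpo overlap Chrd by 239 bases on the other strand. Thpo fell as well, to 0.378 CPM in TAM_AP against 0.867 CPM in con_AP (adjusted p = 0.014, edgeR's quasi-likelihood test). As the strand setting is not given, it is not known whether the Chrd counts hold reads from the opposite strand, and their part was not tested.

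Bmp7 rose in the anterior shelf, where all TAM_AP libraries (83.2 to 102 CPM) lay above all con_AP libraries (70.8 to 76.2 CPM). Its log2 fold change was 0.28 (SE 0.09, adjusted p = 0.016), and 0.48 with the trend removed (adjusted p = 0.00056). Without TAM_AP replicate 1 it was 0.17 (adjusted p = 0.12), and without con_AP replicate 3 it was 0.24 (adjusted p = 0.057). In the posterior shelf Bmp7 was at 103 to 112 CPM in TAM_PP and 84.9 to 99.8 CPM in con_PP (0.17, SE 0.09, adjusted p = 0.15). With the trend removed it was called there too (0.27, adjusted p = 0.039), but not when the replicate number was also a block (0.27, adjusted p = 0.058).

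The other anterior calls were lost with the trend removed. Bmp5 rose to 6.43 ± 0.673 CPM in TAM_AP, against 4.29 ± 0.568 CPM in con_AP (SD, n = 3), a log2 fold change of 0.58 (SE 0.15, adjusted p = 0.0047), and 0.32 with the trend removed (adjusted p = 0.14). Bmp4 fell to 35.8 ± 3.74 CPM in TAM_AP, against 47.1 ± 5.70 CPM in con_AP (-0.39, SE 0.10, adjusted p = 0.0038), and was at -0.15 with the trend removed (adjusted p = 0.14). Bmp3 rose to 22.7 ± 2.48 CPM in TAM_AP, against 17.3 ± 2.57 CPM in con_AP (0.39, SE 0.14, adjusted p = 0.025). Its ranges touched, its call ended without any 1 of 4 libraries (TAM_AP replicates 1 and 3, con_AP replicates 1 and 3; adjusted p = 0.061, 0.099, 0.10 and 0.084), and its log2 fold change was -0.17 with the trend removed (adjusted p = 0.44). Bmp3 has the longest transcript of the members, 6609 bases, and Bmp5 the lowest GC content, 40.5%.

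In the posterior shelf Bmp3 rose to 58.0 ± 8.18 CPM in TAM_PP, against 36.3 ± 5.52 CPM in con_PP, without overlap (log2 fold change 0.68, SE 0.13, adjusted p = 0.0021). It was called without any single library, and was at 0.35 with the trend removed (adjusted p = 0.13). With the replicate number as a block in that fit it was called (0.35, adjusted p = 0.046). Grem1 rose to 10.5 ± 1.23 CPM in TAM_PP, against 7.16 ± 0.449 CPM in con_PP (0.56, SE 0.19, adjusted p = 0.040). Bmp5 rose to 9.998 ± 1.20 CPM in TAM_PP, against 7.32 ± 0.995 CPM in con_PP (0.45, SE 0.15, adjusted p = 0.032). With the trend removed Grem1 was at 0.40 (adjusted p = 0.15) and Bmp5 at 0.29 (adjusted p = 0.20). The call of Grem1 ended without any 1 of 8 libraries, the 6 posterior ones and the replicates 1 of TAM_AP and con_AP (adjusted p up to 0.13). That of Bmp5 ended without any 1 of 4 libraries (TAM_PP replicates 1 and 2, con_PP replicates 2 and 3; adjusted p = 0.12, 0.10, 0.091 and 0.13).

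Nog, Bmp2, Bmp6 and Bmper gave no call for tamoxifen in either part in edgeR's quasi-likelihood test on all 12 libraries. Nog had a log2 fold change of -0.36 in the anterior shelf (SE 0.15, adjusted p = 0.053), which was 0.08 with the trend removed (adjusted p = 0.63). It had 0.19 in the posterior shelf (SE 0.15, adjusted p = 0.35), and was called at 0.45 with the trend removed (adjusted p = 0.016). It was called lower in the anterior shelf without con_AP replicate 1 (adjusted p = 0.014), TAM_AP replicate 3 (adjusted p = 0.038) or TAM_PP replicate 1 (adjusted p = 0.048). The alternative program DESeq2 also called Nog lower there (-0.36, adjusted p = 0.045). The Nog transcript, with 1695 bases and 56.2% GC, lies at the 16.0th percentile of length and the 82.2nd of GC content. Bmper was at 0.02 in the anterior (SE 0.10, adjusted p = 0.89) and 0.09 in the posterior shelf (SE 0.10, adjusted p = 0.52), its levels overlapping between treated and control libraries in both parts. Bmp2 and Bmp6 in the posterior shelf were at 0.17 (SE 0.24, adjusted p = 0.62) and 0.31 (SE 0.20, adjusted p = 0.27). Grem1 in the anterior shelf was at 0.52 (SE 0.22, adjusted p = 0.062), and was called without con_AP replicate 2 (adjusted p = 0.016) or TAM_AP replicate 2 (adjusted p = 0.034). DESeq2 called Grem1 higher there (0.52, adjusted p = 0.037). It was at 0.25 after removal of the trend (adjusted p = 0.40). Bmp4 in the posterior shelf was at -0.15 (SE 0.10, adjusted p = 0.27), and -0.003 with the trend removed (adjusted p = 0.99). All 3 TAM_PP libraries lay below all 3 con_PP libraries in CPM, and the ranges overlapped with the trend removed.

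Markers of other cell types moved with tamoxifen as well. Of 5 endothelial genes 4 rose in each part, summing to 388 to 421 CPM in TAM_AP against 313 to 343 CPM in con_AP, and to 444 to 466 CPM in TAM_PP against 350.0 to 382 CPM in con_PP. Of 4 tooth germ genes 3 fell in the anterior and 1 in the posterior shelf, summing to 364 to 392.3 CPM in TAM_AP against 542 to 639 CPM in con_AP, and to 699 to 852 CPM in TAM_PP against 904 to 1131 CPM in con_PP. Other lists were mixed in the anterior shelf. Of 6 mesenchymal genes 2 rose and 3 fell, of 7 epithelial genes 2 rose and 1 fell, and of 5 smooth muscle and pericyte genes 1 rose and 2 fell. These marker counts and sums still hold the trend with length and GC content. None of these genes was at 0, and their part in the treatment calls of Bmp3, Bmp4, Bmp5, Bmp7, Chrd and Grem1 was not tested.

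**Figure D4:**
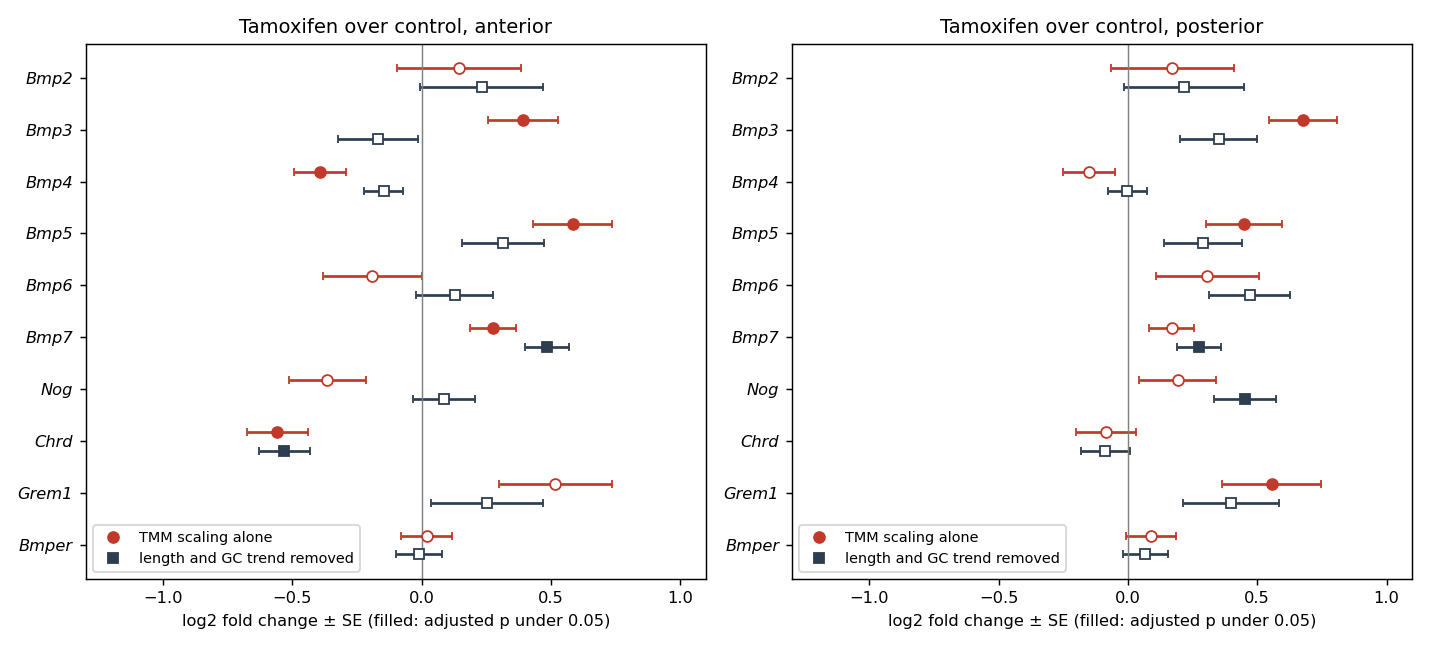
Log2 fold change of tamoxifen over control with its SE for the 10 members in the anterior (left) and posterior (right) shelf, with TMM scaling alone (circles) and with the length and GC trend removed (squares), filled for calls. Chrd stays at -0.56 and -0.53 in the anterior shelf, whereas Bmp3 lies at 0.39 and -0.17.

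Bmp2 and Bmp6 spread most among the TAM_AP libraries. Bmp2 averaged 40.8 ± 16.4 CPM in TAM_AP and 36.9 ± 2.63 CPM in con_AP (log2 fold change 0.14, SE 0.24, adjusted p = 0.65). Bmp6 averaged 59.7 ± 17.6 CPM in TAM_AP and 68.1 ± 11.02 CPM in con_AP (-0.19, SE 0.19, adjusted p = 0.43), and its log2 fold change was 0.13 with the trend removed (adjusted p = 0.56). Both were lowest in TAM_AP replicate 2 and highest in replicate 3. Without replicate 2 Bmp2 was called higher (0.41, adjusted p = 0.020), and without replicate 3 Bmp6 was called lower (-0.43, adjusted p = 0.035).

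The order of the libraries was shared by other members, by most markers of bone-forming cells and by summed markers of several other cell types. The other members spread less than Bmp2 and Bmp6 did. All 10 members had their lowest TAM_AP value in replicate 2, where 39.9% of all genes tested did, and 9 had their highest in replicate 3, where 31.4% of all genes did. With the trend removed these were 8 and 9 members. The 5 osteoblast-lineage markers (Runx2, Sp7, Alpl, Ibsp, Spp1) summed to 417, 263 and 627 CPM in TAM_AP replicates 1, 2 and 3, and to 474 to 547 CPM in con_AP. Sp7, a transcription factor that osteoblasts need, was at 67.4, 23.9 and 119 CPM in the same TAM_AP libraries and at 90.5 to 126 CPM in con_AP. Ibsp, which encodes bone sialoprotein, was at 7.41, 0.358 and 44.7 CPM in them and at 26.9 to 44.8 CPM in con_AP. In the posterior groups the marker sum was 240 to 426 CPM in TAM_PP and 379 to 481 CPM in con_PP, and 0 of the 5 markers were called for tamoxifen in either part. Runx2 and Alpl followed the same order in TAM_AP, whereas Spp1, which encodes osteopontin, did not, at 1.29, 0.291 and 0.1996 CPM in replicates 1, 2 and 3. The same TAM_AP order held for the summed markers of palatal mesenchyme (6026, 4919 and 7286 CPM in replicates 1, 2 and 3). It also held for those of smooth muscle and pericytes, of neurons and Schwann cells, and of macrophages and blood. It did not hold for those of epithelium, endothelium, cartilage, skeletal muscle or tooth germ. No osteoblast-lineage marker was at 0, and the part of any of these cells in the Bmp2 and Bmp6 values was not tested.

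**Figure D5:**
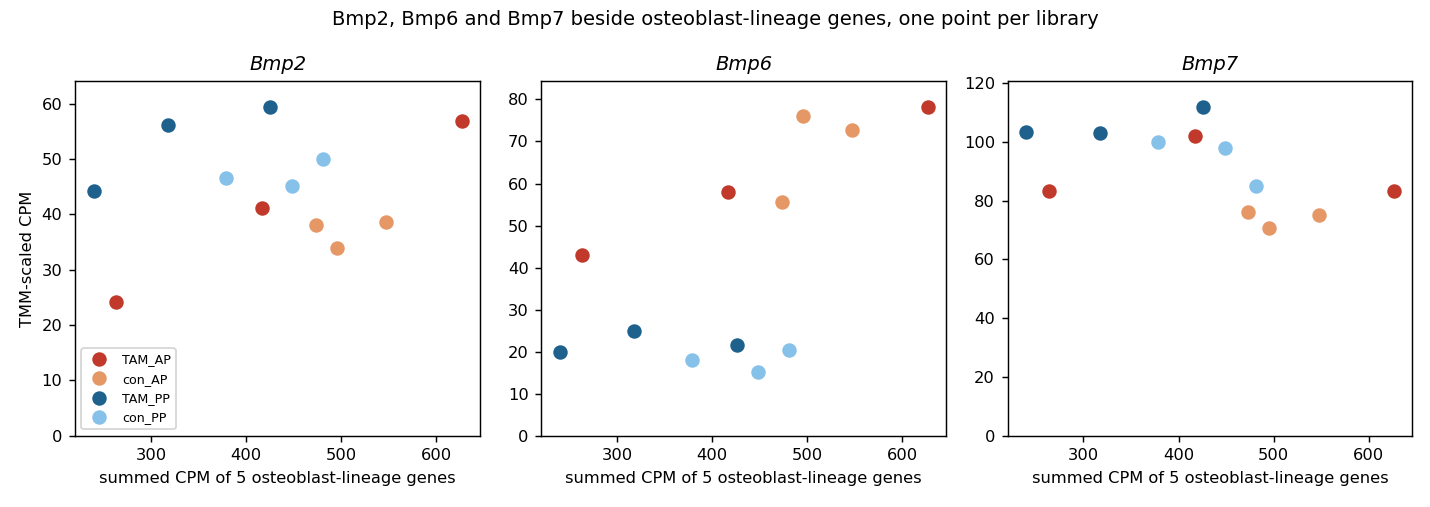
CPM of Bmp2, Bmp6 and Bmp7 against the summed CPM of 5 osteoblast-lineage genes, one point per library and coloured by group. In TAM_AP, Bmp2 and Bmp6 are lowest in the library with the lowest marker sum (263 CPM) and highest in that with 627 CPM, while Bmp7 is 83.2 and 83.4 CPM in these libraries. Summed markers of palatal mesenchyme and of some other cell types, not plotted, had the same order in TAM_AP.

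Whether tamoxifen acted differently in the anterior and posterior shelf was tested by the interaction. It called 0 of the 10 members and 0% of all genes tested (edgeR's quasi-likelihood test). At an unadjusted p under 0.05 there were 2110 genes, 13.2% of all genes tested, and 2 of the 10 members. DESeq2 called 160 genes at an adjusted p under 0.05, 0 of them members. The 2 members at an unadjusted p under 0.05 were Chrd (difference of log2 fold changes -0.47, SE 0.17, adjusted p = 0.29) and Nog (-0.56, SE 0.21, adjusted p = 0.31). The call of Chrd in the anterior shelf alone is therefore not shown to be a difference between the parts.

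The remaining genes of the pathway were followed in lists that were chosen with earlier results of these data known. Of 7 receptor genes, 6 rose and 1 fell in the anterior shelf (TAM_AP against con_AP), against 25.6% and 24.0% of all genes. In the posterior shelf (TAM_PP against con_PP) 5 rose and 1 fell, against 17.3% and 11.7% of all genes. The list's median log2 fold change was 0.84 and 0.56, against -0.02 and 0.02 over all genes. With the trend removed 5 and 4 were higher (17.2% and 9.41% of all genes), and the medians were 0.28 and 0.27. In each part 1 was still lower (15.7% and 8.30% of all genes). Bmpr2, the type II BMP receptor gene, stood at 148 ± 23.5 CPM in TAM_AP and 70.2 ± 8.22 CPM in con_AP (log2 fold change 1.07, SE 0.11, adjusted p = 2.3e-06), and was at 0.20 with the trend removed (adjusted p = 0.017). Between the parts, the type I receptor gene Bmpr1b was lower anteriorly in controls (-1.13, SE 0.17, adjusted p = 8.7e-05) and the pseudoreceptor gene Bambi higher (0.51, SE 0.09, adjusted p = 0.00086).

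Among 18 further secreted modulators, 17 were tested, of which 5 rose and 3 fell in the anterior shelf and 7 rose and 2 fell in the posterior shelf under tamoxifen. The anterior counts are 5 and 3 of 17, near or below the 25.6% and 24.0% of all genes called there, and nothing particular to the list is read from them. In the posterior shelf 17.3% of all genes were called higher and 11.7% lower. Kcp, which encodes the BMP-binding protein kielin/chordin-like, fell to 40.8 ± 3.34 CPM in TAM_AP, against 91.2 ± 5.94 CPM in con_AP (log2 fold change -1.16, SE 0.11, adjusted p = 2.1e-06). Kcp fell to 54.0 ± 9.46 CPM in TAM_PP, against 93.8 ± 8.87 CPM in con_PP (-0.80, SE 0.11, adjusted p = 0.00037). With the trend removed it was at -0.87 and -0.70, called in both parts. Crim1, a membrane-bound BMP-binding gene, rose by 0.75 on the log2 scale in the anterior shelf (adjusted p = 2.7e-06) and by 0.55 in the posterior shelf (adjusted p = 0.00034), and by 0.43 and 0.35 with the trend removed.

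Regional calls among the 17 modulators numbered 3 higher and 8 lower anteriorly under tamoxifen, against 7.60% and 10.2% of all genes. In controls 3 were higher and 5 lower, against 10.2% and 13.1% of all genes. Fst, the gene of follistatin, which binds activins and some BMPs, was higher anteriorly in controls, at 34.9 ± 1.95 CPM in con_AP and 14.4 ± 0.168 CPM in con_PP (log2 fold change 1.28, SE 0.09, adjusted p = 3.7e-08).

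Of 8 other ligand genes 5 were tested (edgeR's quasi-likelihood test). In the posterior shelf 2 rose and 0 fell, against 17.3% and 11.7% of all genes. In the anterior shelf 0 were called, against 25.6% higher and 24.0% lower over all genes. After removal of the trend 3 were called higher in the anterior shelf (17.2% of all genes) and 2 in the posterior shelf (9.41% of all genes). Bmp8b, a ligand gene known for its role in male germ cells, was at 2.17 ± 0.228 CPM in TAM_AP and 1.31 ± 0.201 CPM in con_AP (0.72, SE 0.29, adjusted p = 0.052), and at 0.93 with the trend removed (adjusted p = 0.025). Gdf7 rose to 17.9 ± 3.22 CPM in TAM_PP, against 8.13 ± 1.496 CPM in con_PP (log2 fold change 1.14, SE 0.18, adjusted p = 0.00062), and was at 1.53 with the trend removed. It was 5.78-fold lower anteriorly under tamoxifen (log2 fold change -2.53, SE 0.19, adjusted p = 4.9e-08) and 3.55-fold lower in controls (SE 0.20, adjusted p = 3.9e-06).

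Of the 6 Smad genes, 3 rose and 2 fell in the anterior shelf, against 25.6% and 24.0% of all genes. In the posterior shelf 1 rose and 0 fell, against 17.3% and 11.7% of all genes. Removal of the trend left 2 Smad genes called higher and 1 lower anteriorly (17.2% and 15.7% of all genes). Posteriorly it left 1 higher and 1 lower (9.41% and 8.30% of all genes). Smad7, an inhibitory Smad gene, fell in the anterior shelf (log2 fold change -0.33, SE 0.08, adjusted p = 0.0035) and was at -0.14 with the trend removed (adjusted p = 0.15). The inhibitory Smad genes, Smad7 among them, are also counted among the BMP targets below, so these lists are not independent. Smad4, the common partner of receptor-activated Smads, rose to 145 ± 5.90 CPM in TAM_AP, against 111 ± 5.92 CPM in con_AP (log2 fold change 0.38, SE 0.07, adjusted p = 0.00027).

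Of 10 genes known as BMP targets, 0 rose and 7 fell in the anterior shelf under tamoxifen, against 25.6% and 24.0% of all genes. Their median log2 fold change was -0.38 against -0.02 over all genes. In the posterior shelf 1 rose and 0 fell, against 17.3% and 11.7% of all genes. With the trend removed the anterior counts were 2 higher and 1 lower (17.2% and 15.7% of all genes), and the median was -0.06. The posterior counts were then 3 higher and 0 lower (9.41% and 8.30% of all genes), with a median of 0.13, against -0.04 before. Id3, an early target of BMP Smads, fell to 122 ± 1.61 CPM in TAM_AP, against 168 ± 13.9 CPM in con_AP (-0.46, SE 0.08, adjusted p = 0.00012), and was at 0.02 with the trend removed (adjusted p = 0.78). Msx2, a homeobox target, fell to 5.42 ± 0.315 CPM in TAM_AP, against 9.57 ± 1.45 CPM in con_AP (-0.82, SE 0.15, adjusted p = 0.00030), and was at -0.78 with the trend removed (adjusted p = 0.0012). Between the parts, 2 targets were higher and 4 lower anteriorly under tamoxifen, against 7.60% and 10.2% of all genes. In controls 4 were higher and 1 lower, against 10.2% and 13.1% of all genes. Hey1, a transcription factor gene of the Notch and BMP pathways, was 1.67-fold higher anteriorly under tamoxifen (adjusted p = 2e-05) and 2.71-fold higher in controls (adjusted p = 1.5e-08). Msx2 was 5.66-fold lower anteriorly under tamoxifen (adjusted p = 2.7e-09) and 3.84-fold lower in controls (adjusted p = 4.6e-08).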

How the data were processed

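The deposited files hold 1 raw count per gene symbol and library, without normalization by the authors (24391 symbols). HISAT2, StringTie and build mm9 are named in the submitters' processing notes. Not given in the sources used here: versions, counting program, annotation, strand setting. Among counts of 1 to 100, 57.1 to 60.1% were even. Tests used R 4.3.3 and edgeR 4.0.16: filterByExpr by group, TMM scaling and robust quasi-likelihood fits of the 4 group means on 12 libraries (8 residual degrees of freedom). The threshold was 0.05 after Benjamini-Hochberg adjustment across 15958 genes. The length and GC trend was fitted per library to log2 CPM (prior count 2) of genes with a mean log2 CPM above 1, with natural splines (4 degrees of freedom each, longest GENCODE M21 transcript, 15847 of the tested genes matched) and used as an offset. Alternatives were DESeq2 1.42.0, other scaling, no filter, halved counts, the replicate number as a block, 6 libraries alone, and leaving out each library. Procedures were tested on simulated data. The 10 members are always named. Of each pathway list, the 2 called genes with the smallest adjusted p per contrast could be named, or 1 where none was called. A gene that this rule named is not reported here. Members, lists and rules were chosen with earlier results of these data known.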

Additional observations from a re-analysis of the deposited data

How the results depend on the processing

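All regional member calls (7 in controls, 6 under tamoxifen) were kept under every alternative run, while treatment calls depended on the length and GC trend. Over DESeq2, relative log expression scaling, no filter, halved counts, the replicate block and 6 libraries alone, 286 of 290 member results stayed on their side of the threshold, 4 became calls and 0 changed sign. Without the trend, called members in the anterior tamoxifen comparison numbered 2 in place of 5 (also 2 with the block), all called genes there 5249 in place of 7924 (5090 with the block), those in the posterior comparison 2826 in place of 4625 (2684 with the block), and interaction calls 4 (1 with the block). DESeq2 gave 160 interaction calls. In the anterior tamoxifen comparison, removal of the trend turned the log2 fold changes of Bmp3 (-0.17, with the block -0.16), Bmp6 (0.13 and 0.12), Nog (0.085 and 0.089) and Bmper (-0.010 and -0.011), and the Bmp2 interaction to 0.013. The cause was not tested.

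Leaving out 1 library gave 3 to 7 called members in the anterior and 1 to 3 in the posterior tamoxifen comparison, 2714 to 5485 called genes in the posterior one, and 0 to 6 interaction calls. The posterior count of genes was over 1.5 times lower without con_PP replicate 1 (2714), con_PP replicate 3 (2830) or TAM_PP replicate 1 (3045). Signs changed within these ranges for uncalled values: anterior Bmp2 (-0.17 to 0.41), Bmp6 (-0.43 to 0.002) and Bmper (-0.094 to 0.124), posterior Chrd (-0.21 to 0.023), and the interactions of Bmp2 (-0.32 to 0.27), Grem1 (-0.25 to 0.23) and Bmper (-0.16 to 0.059). With the replicate block 7800 anterior and 4561 posterior genes were called for tamoxifen, and no member call changed. Added to the fit without the trend, the block made posterior Bmp3 a call and ended that of Bmp7. Same-numbered libraries of different groups correlated by -0.06 to 0.15 in their deviations from group means, and differently numbered ones by -0.24 to 0.13. Whether the numbers pair the libraries was not tested.

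The 10 members had at least 50 counts in every library. Bmp2 had the widest standard error of the members in both treatment comparisons (0.24). Sharing of embryos between parts, sex and batch could not be examined from the labels.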
